A study of Saccharomyces cerevisiae with 4 samples.

Results

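The 8 LYS genes of the budding yeast Saccharomyces cerevisiae listed for lysine synthesis were compared between 2 strains, out of 6484 features in the deposited table. They were picked by their systematic names, and all 8 were present: the enzyme genes LYS20 (YDL182W), LYS21 (YDL131W), LYS4 (YDR234W), LYS12 (YIL094C), LYS2 (YBR115C), LYS9 (YNR050C) and LYS1 (YIR034C), and the activator gene LYS14 (YDR034C). The strains were BGL-6Kl, and a derivative of it with the added allele ΔYGP1, called the ΔYGP1 strain here. Both were cultured for 48 h in YPD, a rich glucose medium whose yeast extract and peptone contain lysine, at 30 °C with shaking at 200 rpm and no treatment. Each strain had 2 libraries that the labels call biological replicates, and no further genotype of BGL-6Kl is given. The series states that 48 h was chosen because an activity it calls BGL then began to differ between the strains, and the transcripts were compared at that point.

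Fungi make lysine by the aminoadipate pathway, which starts from 2-oxoglutarate and acetyl-CoA, whereas plants and most bacteria use another route and animals take lysine from food. Homocitrate synthase (Lys20 and Lys21), homoaconitase (Lys4) and homoisocitrate dehydrogenase (Lys12) lengthen the carbon chain, and a transaminase then forms aminoadipate. Aminoadipate reductase (Lys2), saccharopine reductase (Lys9) and saccharopine dehydrogenase (Lys1) complete lysine. In yeast, lysine inhibits homocitrate synthase, and an intermediate of the pathway, aminoadipate semialdehyde, acts with the zinc cluster protein Lys14 to raise transcription of LYS genes.

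The deposited values are strain means of read counts divided by a size factor per library, and the reads of both libraries were recovered from these means for 6184 features, among them all 8 LYS genes. The deeper library of each strain is called A and the other B, and neither letter can be tied to a numbered replicate. Recovered reads summed to 15024611 and 12585047 in BGL-6Kl libraries A and B and to 10154385 and 7419301 in ΔYGP1 libraries A and B. These sums leave out most of the most abundant features, and not the same share in each strain. Of those features, reads were resolved for 82 of 195 in BGL-6Kl and for 0 of 161 in the ΔYGP1 strain. The sums therefore do not compare sequencing depth between the strains. A LYS gene had between 240 and 20247 reads in a library. The gene named in the label, YGP1, was still read in the ΔYGP1 strain: its means were 62470 in BGL-6Kl and 18171 in the ΔYGP1 strain, or 29.1% of the former (adjusted p = 2.88e-08, from the authors' deposited table). Its reads per library could not be resolved, and the total does not show which part of the gene the reads cover. Over the 5267 features that had 50 or more reads everywhere, Pearson's r of log2 values across features was 0.910 between BGL-6Kl library A and either ΔYGP1 library, against 0.876 and 0.878 for BGL-6Kl library B. Library A of BGL-6Kl was therefore the more similar of the 2 to the ΔYGP1 strain. Where leaving out a library ended the call of a LYS gene, the value without it is given beside that gene.

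Most of the lysine synthesis genes were lower in the ΔYGP1 strain, and 1 was higher. The authors' deposited table calls 6 of the 8 changed at an adjusted p below 0.05, against 20% of all features. It has 5 of the 8 lower, against 10.3% of all features, and 1 of the 8 higher, against 9.65%. The falls were those of LYS2, LYS12, LYS1, LYS21 and LYS20, and the rise was that of LYS4. LYS14 and LYS9 did not pass. With a difference of at least 2-fold also asked for, 5 of the 8 remained (LYS20 did not), against 13.7% of all features, and at an adjusted p below 0.01 LYS2, LYS21 and LYS4 did, against 12.2%. The median log2 fold change of the 8 genes was -0.93, against 0.02 over all features. Among the 5329 features with a mean of at least 100 in both strains, as all 8 LYS genes had, 11.9% were called lower and 10.2% higher. In a whole culture, a lower value cannot be told apart as fewer cells that express a gene or less of its RNA per cell.

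**Figure D1:**
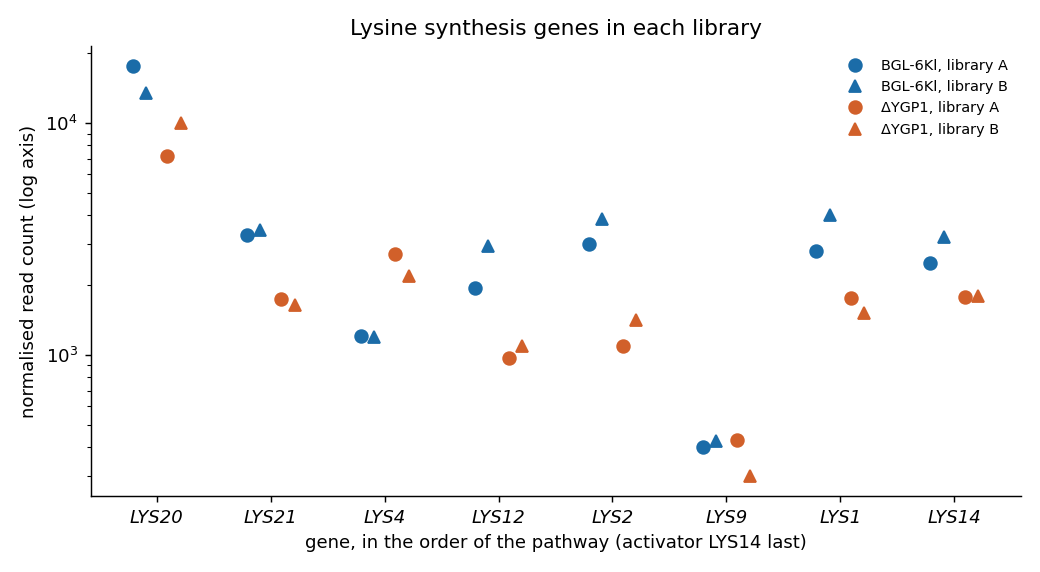
Normalised read count (log axis) of each lysine synthesis gene in the 4 libraries, with BGL-6Kl libraries in blue, ΔYGP1 libraries in orange, circles for library A and triangles for library B. For LYS4 both ΔYGP1 points lie above both BGL-6Kl points (2720 and 2184 against 1203 and 1189), for LYS9 the strains overlap, and for the other genes both ΔYGP1 points lie below.

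LYS20 and LYS21 encode the paralogous homocitrate synthases of the first step. LYS20 had normalised read counts of 17530 and 13444 in BGL-6Kl libraries A and B and of 7219 and 9963 in ΔYGP1 libraries A and B. Both ΔYGP1 libraries lay below both BGL-6Kl ones, and the nearest values of the strains were about as far apart as the libraries of 1 strain, which differed 1.30-fold and 1.38-fold. The strain means of 15487 and 8591 gave a log2 fold change of -0.85 (adjusted p = 0.0184, from the authors' deposited table). A limma fit to the recovered libraries gave -0.86 ± 0.25 (SE, adjusted p = 0.0269), and adjusted p = 0.278 without BGL-6Kl library A and 0.0819 without BGL-6Kl library B.

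LYS21 varied little within strains. It had 3284 and 3471 in the BGL-6Kl libraries and 1734 and 1638 in the ΔYGP1 libraries, a 1.06-fold spread within each strain. Strain means were 3378 and 1686, a fall to 49.9% of the BGL-6Kl level (adjusted p = 0.00496, from the authors' deposited table). The groups did not overlap, and the highest ΔYGP1 value was well below the lowest BGL-6Kl value. LYS20 and LYS21 resemble each other in sequence, and how reads that fit both were assigned is not given in the sources used here, so the split between them is uncertain.

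LYS4 encodes homoaconitase, the mitochondrial enzyme of the step after homocitrate, and was the only one of the 8 genes with a positive log2 fold change. It had 1203 and 1189 in the BGL-6Kl libraries and 2720 and 2184 in the ΔYGP1 libraries. The BGL-6Kl libraries were 1.01-fold apart, and both ΔYGP1 libraries stood above them. Its strain means of 1196 and 2452 gave a 2.05-fold rise (log2 fold change 1.04 with adjusted p = 0.00268, from the authors' deposited table). With limma the estimate was 1.03 ± 0.21 (SE, 95% confidence interval 0.57 to 1.48, adjusted p = 0.00518), and it lay between 0.87 and 1.18 when any 1 library was left out. Of all features with a finite fold change, 9.9% had a higher one than LYS4.

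LYS12 encodes homoisocitrate dehydrogenase, which follows Lys4 in the mitochondrion. Its values were 1943 and 2951 in the BGL-6Kl libraries and 971 and 1091 in the ΔYGP1 libraries. BGL-6Kl library B was 1.52-fold above BGL-6Kl library A, the widest spread of any of the 8 genes within a strain, and yet both ΔYGP1 libraries were lower than either. The strain means of 2447 and 1031 gave a 2.37-fold fall (log2 fold change -1.25 with adjusted p = 0.0277, from the authors' deposited table). Without BGL-6Kl library B the limma estimate shrank from -1.22 ± 0.24 to -0.92 (SE for the first, adjusted p = 0.00464 and 0.0512).

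LYS2 encodes aminoadipate reductase, the enzyme of the first step after aminoadipate, and had the most negative log2 fold change of the 8. It had 3009 and 3857 in the BGL-6Kl libraries and 1089 and 1411 in the ΔYGP1 libraries. Both strains were about equally spread, 1.28-fold and 1.30-fold, and the groups were far apart. Strain means were 3433 and 1250, which gave a 2.75-fold fall (log2 fold change -1.46 with adjusted p = 1.39e-05, from the authors' deposited table). With limma it was -1.46 ± 0.22 (SE, adjusted p = 0.00152), and 4.2% of all features had a lower fold change than LYS2.

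LYS9 encodes saccharopine reductase, which joins the product of Lys2 to glutamate, and did not pass the test. It had the lowest values of the 8 genes, 402 and 425 in the BGL-6Kl libraries and 428 and 301 in the ΔYGP1 libraries. ΔYGP1 library A lay above both BGL-6Kl libraries and ΔYGP1 library B below both. The log2 fold change was -0.18 (adjusted p = 0.847, from the authors' deposited table). The limma 95% confidence interval ran from -0.75 to 0.35, so a fall as large as that of LYS14 lies inside it.

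LYS1 encodes saccharopine dehydrogenase, the enzyme that releases lysine in the last step. It had 2816 and 4004 in the BGL-6Kl libraries and 1755 and 1510 in the ΔYGP1 libraries. The ΔYGP1 libraries were both lower, while the BGL-6Kl libraries differed 1.42-fold between themselves. The strain means of 3410 and 1632 gave a 2.09-fold fall (log2 fold change -1.06 with adjusted p = 0.0259, from the authors' deposited table). The limma estimate of -1.04 ± 0.23 (SE, adjusted p = 0.00758) became -0.79 without BGL-6Kl library B (adjusted p = 0.115).

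LYS14, the activator gene, had a log2 fold change nearer 0 than the 6 called genes and did not pass in the authors' table. It had 2498 and 3211 in the BGL-6Kl libraries and 1772 and 1790 in the ΔYGP1 libraries. The groups did not overlap, and the ΔYGP1 libraries were 1.01-fold apart. Strain means were 2854 and 1781, which gave a log2 fold change of -0.68 (adjusted p = 0.078, from the authors' deposited table). The limma fit put it past the threshold (-0.67 ± 0.21, SE, adjusted p = 0.0356), but not without BGL-6Kl library A (-0.85, adjusted p = 0.0626), without BGL-6Kl library B (-0.49, adjusted p = 0.391) or without the intensity trend (adjusted p = 0.103).

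**Figure D2:**
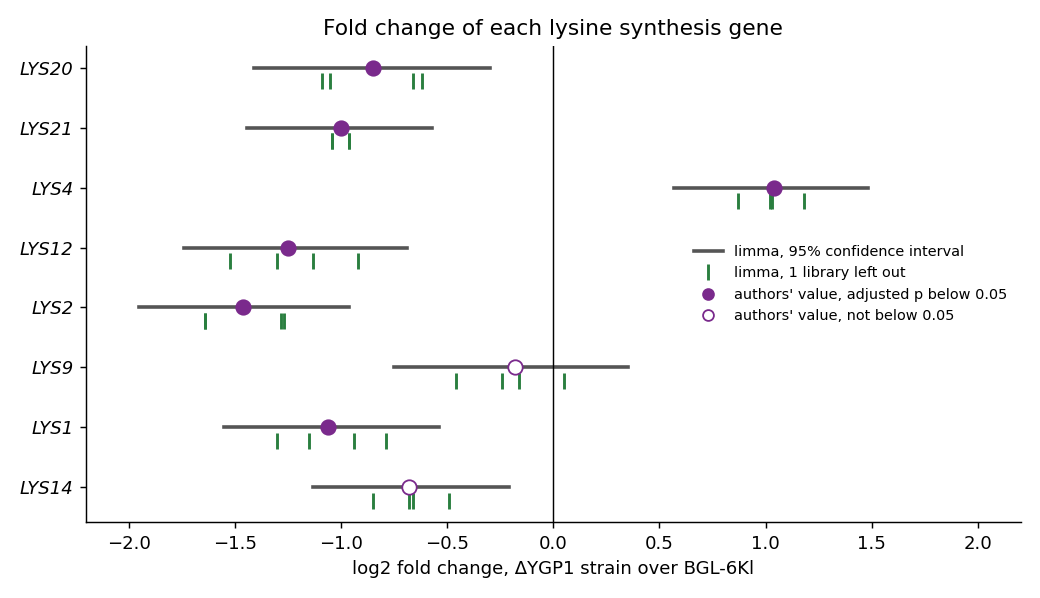
Log2 fold change of the ΔYGP1 strain over BGL-6Kl for each gene: circles are the authors' values (filled where adjusted p was below 0.05), lines are 95% confidence intervals of a limma fit to the 4 recovered libraries, and green ticks are limma estimates with 1 library left out. LYS4 sits near 1.04, LYS9 spans 0, and the remaining genes lie between -0.68 and -1.46.

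In the limma fit as a whole, 6 of the 8 LYS genes were called lower, where 14.9% of the 6116 fitted features were, and 1 was called higher, where 13.8% were. Both ΔYGP1 libraries lay below both BGL-6Kl ones for the same 6 genes, where 33% of the recovered features did, and above them for LYS4, where 33.2% did. The fit used the same 4 libraries as the authors' test and is no separate check. When the fit used no intensity trend, 3 of the 8 genes were called (LYS2 and LYS21 lower, LYS4 higher), where 11.8% of features were. Without BGL-6Kl library B the estimates of LYS20, LYS12, LYS1 and LYS14 were -1.05, -0.92, -0.79 and -0.49, and these genes were not called. Without BGL-6Kl library A 5 were called, where 22.4% of features were. Without ΔYGP1 library A or B 7 each were called, where 32% and 31.1% of features were, but both of these counts were 0 when 30 features with 0 reads in both BGL-6Kl libraries were kept in the fit (6 and 7 of the 8 at an unadjusted p below 0.05).

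LYS4 took a different place among the LYS genes in each strain when they were ordered by level. On the scale of normalised reads per kb of coding length, the BGL-6Kl order was LYS20 (12033), LYS1 (3039), LYS21 (2553), LYS12 (2193), the activator LYS14 (1203), LYS2 (822), LYS4 (575) and LYS9 (308). The libraries of LYS1 and LYS21 overlapped there, as did those of LYS21 and LYS12, and the other neighbours in the order did not. In the ΔYGP1 strain the per-length levels ran LYS20 (6676), LYS1 (1455), LYS21 (1274), LYS4 (1178), LYS12 (923), LYS14 (751), LYS2 (299) and LYS9 (272). LYS21 overlapped with LYS4 and LYS2 with LYS9. LYS4 thus went from rank 7 to rank 4, while LYS20 ranked 1 and LYS9 ranked 8 in both strains.

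Within each library, the level of LYS4 relative to LYS12 and LYS2 differed between the strains. The ratio of LYS4 to LYS12 per-length levels was 0.332 and 0.216 in the BGL-6Kl libraries and 1.50 and 1.07 in the ΔYGP1 libraries. Its ratio to LYS2 was 0.803 and 0.619 in BGL-6Kl and 5.01 and 3.11 in the ΔYGP1 strain. Such ratios do not depend on the size factor of a library, and neither ratio overlapped between strains. That had to follow, since LYS4 was higher and LYS12 and LYS2 were lower in both ΔYGP1 libraries than in both BGL-6Kl ones. The lack of overlap is therefore no further result. With 2 libraries a strain the smallest p of an exact permutation test is 0.333, so none was run on these ratios. LYS4 held 2.63% and 2.71% of the summed per-length level of the 7 enzyme genes in the BGL-6Kl libraries and 11.6% and 8.12% in the ΔYGP1 libraries.

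For the homocitrate synthase genes no such shift was seen, though how reads that fit both were assigned is not known. The ratio of LYS20 to LYS21 per-length levels was 5.49 and 3.98 in the BGL-6Kl libraries and 4.28 and 6.25 in the ΔYGP1 libraries, so the strains overlapped. Together the pair held 73.4% and 62.0% of the summed enzyme level in BGL-6Kl and 61.6% and 69.5% in the ΔYGP1 strain. The summed per-length level itself was 21951 and 21094 in the BGL-6Kl libraries and 11240 and 12913 in the ΔYGP1 libraries, and LYS20 alone made up between 49.5% and 62.1% of it in every library.

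**Figure D3:**
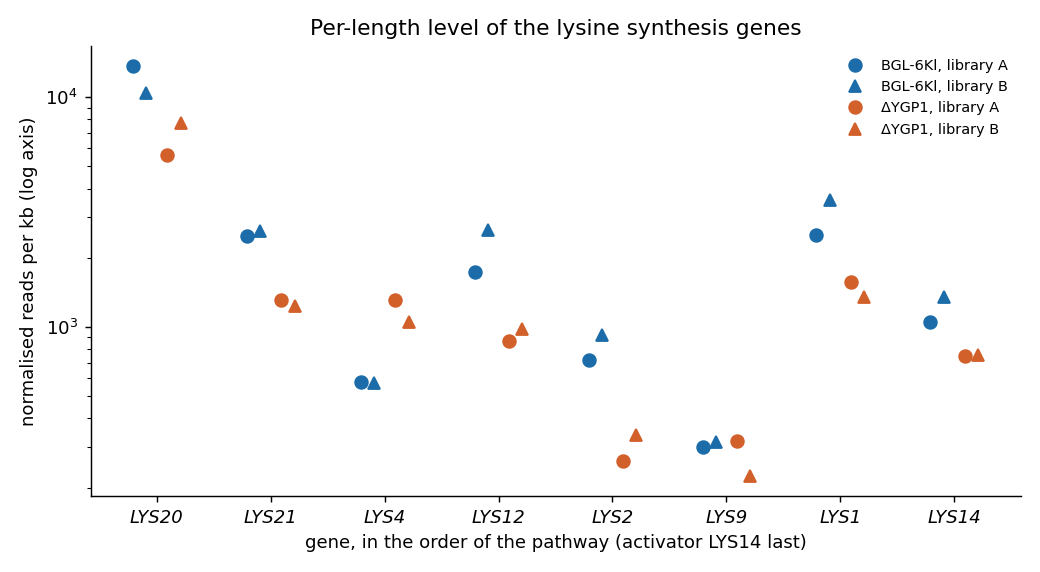
Normalised reads per kb of coding length (log axis) for the 7 enzyme genes in pathway order and for LYS14, in BGL-6Kl (blue) and ΔYGP1 (orange) libraries A (circles) and B (triangles). LYS20 is highest in every library, and LYS4 lies below LYS12 in both BGL-6Kl libraries (ratios 0.332 and 0.216) and above it in both ΔYGP1 libraries (1.50 and 1.07).

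Beyond the LYS genes themselves, 24 genes that assist the pathway, feed it, carry or use lysine, or regulate it were examined. By the authors' deposited table, 3 of the 24 were lower (10.3% of all features were) and 1 was higher (9.65% were), and 20 did not pass. Reads were recovered for 21 of the 24, of which limma called 4 lower and 1 higher, against 14.9% and 13.8% of its features. Their log2 fold changes ran from -1.84 to 1.96 with a median of 0.03.

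None of the 3 genes described here that assist the enzymes passed the authors' test. LYS5, whose product attaches the cofactor that Lys2 needs, had 973 and 953 in the BGL-6Kl libraries and 1152 and 1131 in the ΔYGP1 libraries (log2 fold change 0.25 with adjusted p = 0.632, from the authors' deposited table). ARO8, a transaminase that can form aminoadipate, had strain means of 1554 in BGL-6Kl and 1651 in the ΔYGP1 strain. Its relative ARO9 had strain means of 7979 and 4357 (log2 fold change -0.87 with adjusted p = 0.0774, from the authors' deposited table). The limma fit called ARO9 lower (-0.94 ± 0.29, SE, adjusted p = 0.0313), but not without BGL-6Kl library A or B or ΔYGP1 library B (adjusted p = 0.0967, 0.0534 and 0.0605).

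GCN4, the activator of amino acid synthesis genes under starvation, was lower. Its mean was 50327 in BGL-6Kl and 29530 in the ΔYGP1 strain (log2 fold change -0.77 with adjusted p = 0.0201, from the authors' deposited table). Its reads per library could not be resolved, and Gcn4 is controlled mainly in translation, which these data do not measure. MKS1, a negative regulator also known as LYS80, had means of 1659 and 1621, and RTG1, RTG2 and RTG3, of the retrograde pathway that responds to mitochondrial state, had log2 fold changes of 0.30, 0.17 and -0.64. None of these 4 passed.

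LYP1, the lysine permease of the plasma membrane, was lower. It had 7803 and 9462 in the BGL-6Kl libraries and 3780 and 5103 in the ΔYGP1 libraries, and the groups did not overlap. The strain means of 8633 and 4442 gave a log2 fold change of -0.96 (adjusted p = 0.00443, from the authors' deposited table). The limma estimate was -0.97 ± 0.23 (SE, adjusted p = 0.0113), and -0.83 without BGL-6Kl library B (adjusted p = 0.141). The limma fit without the intensity trend did not call LYP1 (adjusted p = 0.0668). CAN1, an arginine permease that also takes up lysine, had strain means of 2090 in BGL-6Kl and 2483 in the ΔYGP1 strain and did not pass. The vacuolar transporter genes VBA1, VBA2, YPQ1 and YPQ2 had log2 fold changes between -0.51 and 0.43 and did not pass. VBA3 had 594 and 445 in the BGL-6Kl libraries and 417 and 2647 in the ΔYGP1 libraries, so only ΔYGP1 library B was high behind its log2 fold change of 1.56. VBA3 has a closely similar copy, VBA5, with which reads could be shared.

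The genes of the lysyl-tRNA synthetases, which load lysine onto its tRNAs, went in opposite directions. KRS1, for the cytosolic enzyme, had 2139 and 2973 in the BGL-6Kl libraries and 754 and 671 in the ΔYGP1 libraries (log2 fold change -1.84 with adjusted p = 8.7e-05, from the authors' deposited table). MSK1, for the mitochondrial enzyme, had 1525 and 1225 in BGL-6Kl and 5894 and 4817 in the ΔYGP1 strain (log2 fold change 1.96 with adjusted p = 1.11e-09, from the authors' deposited table). In both genes the libraries of the strains were far apart, and these were the most negative and the most positive fold changes of the 24.

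Genes that supply or move 2-oxo acids did not pass the authors' test. The 2-oxoglutarate supply genes CIT1 (citrate synthase), ACO1 (aconitase), IDH1, IDH2 and IDP1 (isocitrate dehydrogenases) had log2 fold changes of -0.10, -0.85, 0.38, 0.17 and -0.71. ODC1 and ODC2, which carry 2-oxoadipate and 2-oxoglutarate across the mitochondrial inner membrane, had -0.44 and -0.31. The nearest to the threshold were IDP1 and ACO1 (adjusted p = 0.0615 and 0.063, from the authors' deposited table). The limma fit called IDP1 lower (-0.71 ± 0.20, SE, adjusted p = 0.0214), but not without BGL-6Kl library A or B (adjusted p = 0.152 and 0.124).

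**Figure D4:**
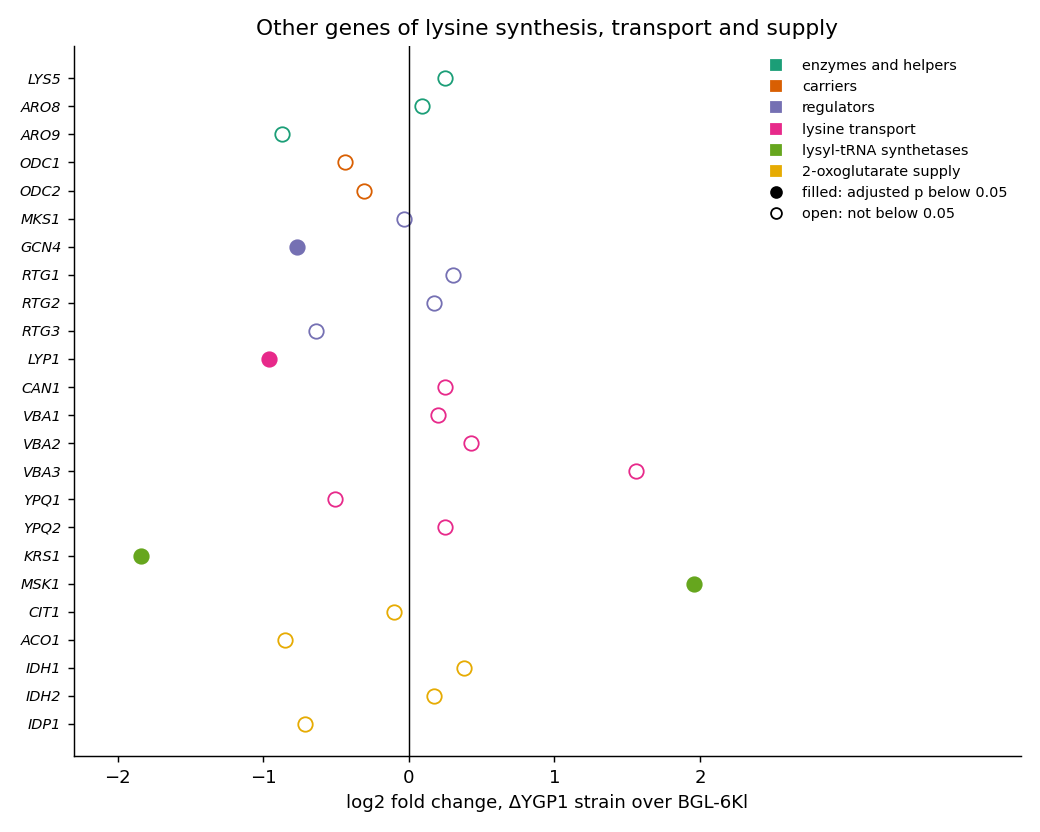
Log2 fold change of the ΔYGP1 strain over BGL-6Kl, from the authors' deposited table, for 24 further genes of lysine metabolism coloured by role, with filled circles where adjusted p was below 0.05. GCN4, LYP1 and KRS1 are filled to the left of 0 and MSK1 (1.96) to the right, and VBA3 (1.56) is open.

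The fall of most LYS genes was set beside other amino acid pathways as a description, with no test of the difference. Of 9 arginine synthesis genes 4 were called lower and 0 higher in the authors' deposited table, with a median log2 fold change of -0.70. Of 11 branched-chain amino acid genes 1 was called lower and 3 higher, with a median of -0.51. Over all features that table has 10.3% lower and 9.65% higher. The limma fit called 4 of the 9 arginine genes lower and 0 higher, against 14.9% and 13.8% of its features. Of the 9 branched-chain genes with recovered reads it called 4 lower and 2 higher, so the more frequent direction there depended on the test. Without the intensity trend limma called 2 arginine genes lower and 0 higher, and 0 branched-chain genes lower and 1 higher. In that fit 11.8% of features were called in either direction. Leucine synthesis uses steps chemically like those of Lys20 and Lys21, Lys4 and Lys12. There, LEU2, the dehydrogenase gene that corresponds to LYS12, had 774 and 696 in the BGL-6Kl libraries and 1737 and 1766 in the ΔYGP1 libraries, a rise (log2 fold change 1.25 with adjusted p = 0.000432, from the authors' deposited table) where LYS12 fell. LEU1, which corresponds to LYS4, had 4204 and 3735 against 4499 and 9331 and did not pass (log2 fold change 0.80 with adjusted p = 0.517, from the authors' deposited table). LEU4 and LEU9, for the synthases of the first leucine step, had log2 fold changes of -0.65 and -1.14 and did not pass the authors' test. The limma fit called LEU9 lower (-1.10 ± 0.31, SE, adjusted p = 0.0228), but not without BGL-6Kl library B (-0.78, adjusted p = 0.236) or ΔYGP1 library B (adjusted p = 0.0583).

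None of the 8 LYS genes overlaps another gene in the R64 annotation. Of the 15 listed genes next to them, 1 was called lower and 1 higher in the authors' deposited table, close to the 10.3% and 9.65% of all features. A negative log2 fold change was found for 11 of the 15, and for 3133 of all 6484 features. The median log2 fold change of the 15 was -0.30, against 0.02 over all features. TKL2, a transketolase gene beside LYS2, fell by a log2 fold change of -2.89 (adjusted p = 1.4e-08, from the authors' deposited table), and RSM25, a mitochondrial ribosomal protein gene beside LYS12, rose by 1.08 (adjusted p = 0.00333, from the authors' deposited table). Both neighbours of LYS4, RTN1 and PRP42, had negative log2 fold changes of -0.53 and -0.25 and did not pass. These neighbours were named after their values were seen.

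Among 5029 features with a mean of at least 100 in both strains and recovered reads, the ones nearest to the mean profile of the LYS genes over the 4 libraries were SKN7, SPT23, PUB1, PDC2 and COX19, at distances of 0.0407 to 0.0629 on the log2 scale. Of the LYS genes, LYS14 lay nearest to their own mean profile (0.117) and LYS4 farthest (1.73). That mean takes in all 8 genes, so LYS14 is part of it, as are the rise of LYS4 and the small change of LYS9. The nearest features had log2 fold changes of -0.72 to -0.62, smaller in size than any called LYS fall (-0.85 to -1.46). The mean profile thus stands for none of the called genes. SKN7 had 3344 and 3890 in the BGL-6Kl libraries and 2290 and 2318 in the ΔYGP1 libraries. This likeness is a description over 4 libraries only.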

How the data were processed

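RNA of 2 strains with 2 libraries each was measured. Extraction with TRIzol and Illumina library preparation are stated per the labels' protocols. The aligner, counter, build, strandedness and test: not given in the sources used here, so antisense reads cannot be told apart from sense reads. The 1 deposited table holds, per the file headers, a read count for each strain. Its values show that the authors had divided the reads of a library by a size factor and deposited the mean signal of both libraries. Also deposited were the authors' log2 fold change (it matches the ratio of both means to within 5e-05), a p-value and its adjusted value. Features count as called below an adjusted p of 0.05.

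Reads of single libraries were worked out from the means, which are sums of whole multiples of 2 steps, 1 per library. The steps came from a least-squares fit (Python 3.11.15), and every pair of whole numbers within 0.55 units of the last printed digit was kept. In BGL-6Kl 98.3% of features had 1 such pair, and in the ΔYGP1 strain 95.6% did. Libraries A and B had size factors of 1.155 and 0.9636 (BGL-6Kl) or 1.125 and 0.7968 (ΔYGP1 strain). A 2-sided limma 3.58.1 test in R 4.3.3, with intensity trend and p-values adjusted by Benjamini-Hochberg, used log2(normalised read count + 1) of 6116 features whose mean reached 1. This scale understates changes of low features. In simulated libraries with 6106 features, 67.0% of 2-fold and 99.0% of 4-fold changes were called, as were 6 unchanged features among 172 calls. The simulation gave all features and libraries the same dispersion and changed far fewer features than limma called in the data. Its shares therefore need not hold for these libraries. All p-values measure only the spread between these libraries.

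R64 supplied names (5869 matches), neighbours and coding lengths. Coordinates and sequences are not printed, since the build of the deposited values is unknown. The LYS genes, lists and tests were chosen with earlier results of these data known. All 8 LYS genes, all 24 pathway genes used (1 more is not reported here), the leucine genes of like steps and the 5 nearest profiles are named. Alternatives were limma, other thresholds, pseudocounts, filters and scalings, and leaving out each library.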

Additional observations from a re-analysis of the deposited data

How the results depend on the processing

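No paired analysis was possible because the deposited columns carry no replicate numbers. LYS2, LYS21 and LYS4 were called with the same direction by the authors' test and by every limma fit to all 4 libraries. With any 1 library left out they kept that direction (-1.64 to -1.27, -1.04 to -0.96 and 0.87 to 1.18). Of these fits, those without a ΔYGP1 library lack 30 features that have 0 reads in both BGL-6Kl libraries. That choice was made after the data were seen, and the calls and counts of those fits depended on it, as described below. The authors' count of 6 LYS genes became 3 at an adjusted p below 0.01. The limma count of 7 became 3 without the intensity trend and 3 without BGL-6Kl library B, and ran from 3 to 7 with single libraries left out. The authors' count of 4 in the list of 24 became 2 with a 2-fold minimum, against 13.7% of all features. The limma count of 5 among the 21 of these with recovered reads became 2 without the trend and 2 without BGL-6Kl library B, and ran from 2 to 8. For all 6484 features the authors' 1296 calls became 793 at an adjusted p below 0.01. The 1758 limma calls among 6116 features became 719 without the trend, and ran from 836 (without BGL-6Kl library B) to 1949 (without ΔYGP1 library A). Without the trend LYS20 (-0.86), LYS12 (-1.22) and LYS1 (-1.04) no longer passed, and the cause was not tested. The same held for the limma calls of LYP1, ARO9, IDP1 and LEU9 (limma adjusted p = 0.0668, 0.134, 0.0703 and 0.0683 without the trend). With single libraries left out LYS20 ran from -1.09 to -0.62 and failed without BGL-6Kl library A (-0.66) or B (-1.05). LYS12 ran from -1.52 to -0.92 and LYS1 from -1.30 to -0.79, and both failed without BGL-6Kl library B. LYS9, never called, ran from -0.46 to 0.05 and turned positive without ΔYGP1 library B. LYS14 passed with limma (-0.67, also with either other pseudocount or filter) and after upper-quartile scaling (-0.62), and did not pass without the trend. Its estimate was -0.66 without ΔYGP1 library A and -0.68 without B. Without BGL-6Kl library A (-0.85) or B (-0.49) it did not pass. Nor did it pass after scaling by the sum of recovered reads, which leaves out most of the most abundant features. That scaling moved the median of all fitted features to 0.14. The limma calls went from 911 lower and 847 higher to 718 lower and 1117 higher.

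With a ΔYGP1 library left out, 30 features with 0 reads in both BGL-6Kl libraries have no spread, and they were dropped from those fits after the data were seen. When they were kept, limma called 0 of 6116 features (2323 and 2289 at an unadjusted p below 0.05, without library A and B), 0 LYS genes (6 and 7 unadjusted) and 0 of the 21 listed genes with recovered reads (8 and 7 unadjusted). The estimates did not move: without ΔYGP1 library A and B they were -0.62 and -1.09 for LYS20, -1.04 and -0.96 for LYS21, 0.87 and 1.18 for LYS4, -1.13 and -1.30 for LYS12, -1.27 and -1.64 for LYS2, and -1.15 and -0.94 for LYS1, with adjusted p between 0.0594 and 0.145. LYS9 was again 0.05 without library B. Where a strain is left with 1 library, that library is assumed to vary like those of the other strain.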
